A study of Caenorhabditis elegans with 4 samples.

Results

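The sites described here are the 804 DVE-1 peaks on chromosome IV of Caenorhabditis elegans, out of 4971 peaks on all 6 chromosomes in the combined peak list. Every combined peak on the chromosome is included, whatever its q-value or width. The peaks come from chromatin immunoprecipitation followed by sequencing (ChIP-seq) with an anti-GFP antibody in late embryos of strain OP398, grown at 20 °C and crosslinked with 2% formaldehyde. The study has 2 ChIP samples and 2 input samples, all hermaphrodites of the same strain and stage. The worms carry the unc-119(ed3) allele on chromosome III and the transgene wgIs398, made by bombardment, in which dve-1::TY1EGFPFLAG accompanies a working copy of unc-119. The genotype lists no deletion of the worm's own dve-1, so untagged DVE-1 may be present beside the fusion protein, and the peaks are those of the tagged protein. Whether the replicates came from separate cultures is not given, so differences between the replicate lists could be technical. The analysed files are 3 lists of peaks, 1 per ChIP replicate and the combined list, called with PeakSeq on WormBase build WS180. The lists give the start, the end and a q-value of every peak but no read counts, so the depth behind a peak is unknown. The input libraries have no list of their own here.

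DVE-1 belongs to the SATB-type homeodomain proteins and is a relative of Defective proventriculus of Drosophila. It is best known as a nuclear factor of the mitochondrial unfolded protein response, the programme by which stressed mitochondria raise the expression of chaperones. C. elegans autosomes have a gene-dense centre with little meiotic recombination and 2 arms that recombine more often and hold more repeats. Chromosome IV is also known for large clusters of piRNA genes, whose positions on this build were not used here.

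DVE-1 sites were densest in the left arm of the chromosome and sparsest in the right arm, with the centre between them. Peaks were assigned by midpoint to the left domain (positions 1 to 3896000), the centre (3896001 to 12970000) or the right domain (above 12970000, up to the last peak end at 17493592). The left domain held 236 combined peaks and the right domain 152, against 416 in the centre. These numbers correspond to 60.6 peaks per Mb on the left and 33.6 on the right, against 45.8 in the centre. The left density was thus 1.32 times that of the centre (95% exact interval 1.12 to 1.55), and the right density 0.733 times that of the centre (0.605 to 0.885). The intervals cover counting error only and treat peaks as independent, although peaks lie near each other.

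Both replicate lists had the same order of domains. Replicate 1 listed 91 peaks on the left and 59 on the right, against 149 in the centre, at 23.4 and 13.0 against 16.4 peaks per Mb. Replicate 2 listed 105 and 70, against 181, at 27.0 and 15.5 against 19.9 peaks per Mb. The ratio of left to centre was 1.42 (1.08 to 1.86) in replicate 1 and 1.35 (1.05 to 1.73) in replicate 2, so that the interval lay above 1 in every list. The ratio of right to centre was 0.794 (0.577 to 1.08) and 0.776 (0.580 to 1.03), and in each replicate alone the interval included 1. Because the centre lay between the arms in density, the difference between the arms was necessarily larger than either. The ratio of left to right was 1.80 (1.46 to 2.23) in the combined list. It was 1.79 (1.28 to 2.53) in replicate 1 and 1.74 (1.28 to 2.39) in replicate 2.

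The ratios were also taken by the support of the sites. Among combined peaks found in both replicates the left density was 18.5 and the right density 10.4 per Mb, against 11.6 per Mb in the centre. For these sites the ratio to the centre was 1.60 on the left (1.17 to 2.18) and 0.898 on the right (0.623 to 1.28). Among peaks found in neither replicate the ratios were 1.30 on the left (1.03 to 1.63) and 0.700 on the right (0.530 to 0.916). Among peaks in replicate 1 only they were 1.03 (0.520 to 1.94) and 0.590 (0.260 to 1.22), and among peaks in replicate 2 only 1.11 (0.700 to 1.73) and 0.648 (0.376 to 1.07). The interval of left to centre thus lay above 1 for peaks in both and in neither replicate and included 1 for peaks in a single replicate, which are fewer. For the right arm it lay below 1 only for peaks in neither. Whether the ratios differ between these kinds of site was not tested.

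**Figure D1:**
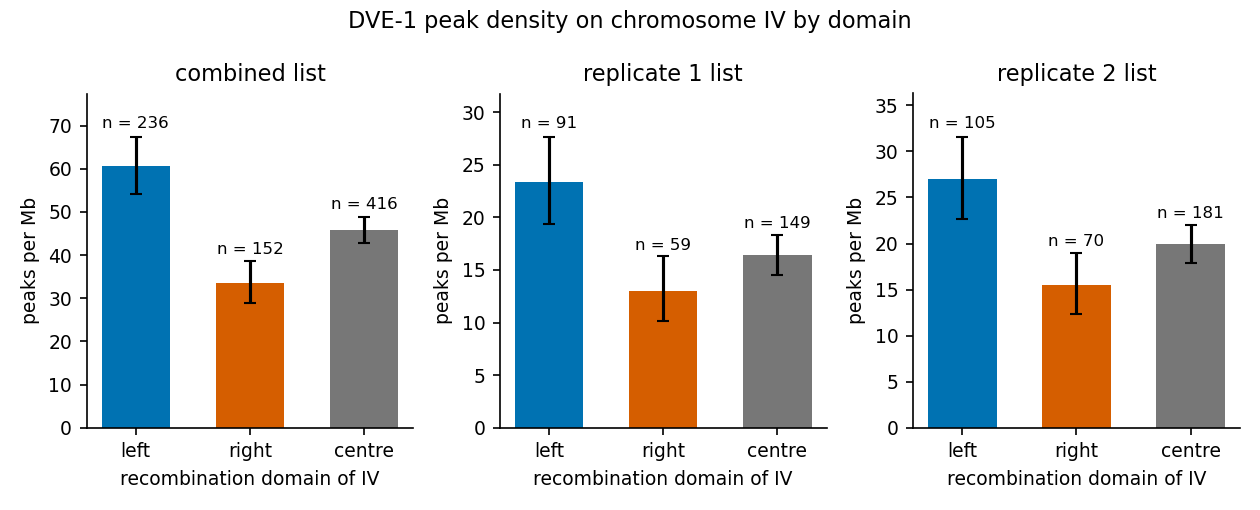
Combined, replicate 1 and replicate 2 peaks per Mb of chromosome IV in the left, right and central domains. Each panel has its own vertical scale starting at 0. Bars are peak counts divided by domain length, and error bars are 95% Clopper-Pearson intervals of each domain's share of the list, scaled to density; the left domain is highest in every panel (60.6, 23.4 and 27.0 peaks per Mb) and the right domain lowest (33.6, 13.0 and 15.5).

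A profile in steps of 1 Mb showed where the densities changed. The first 4 Mb held 56, 62, 60 and 61 combined peaks, a nearly even plateau that covers the left arm. Further right the counts varied between 34 (6 to 7 Mb) and 58 (8 to 9 Mb) within the centre, with 55 in the step from 4 to 5 Mb and 51 in the step from 11 to 12 Mb. The lowest of the 17 full steps was 15 to 16 Mb in the right arm, with 19 combined peaks, 7 peaks of replicate 1 and 8 of replicate 2. That step was the lowest in each of the 3 lists, where the medians were 44, 18 and 20 peaks. The neighbouring step of 14 to 15 Mb had few combined peaks (33) but more replicate peaks than the median (20 and 22), and 16 of its combined peaks were in both replicates. The highest steps differed between lists, with 62 combined peaks at 1 to 2 Mb, 26 of replicate 1 at 2 to 3 Mb and 32 of replicate 2 at 4 to 5 Mb.

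On a finer scale, windows of 100 kb held a median of 6 combined peaks on the left and 3 on the right, against 5 in the centre. The densest window was 4000001–4100000, just inside the centre, with 15 combined peaks, 5 peaks of replicate 1 and 9 of replicate 2. Of these 15 peaks, 4 were in both replicates, 1 was in replicate 1 only, 4 were in replicate 2 only and 6 were in neither; the best had rank 474. The next densest, 5600001–5700000, had 12 combined peaks of which 7 were in both replicates, the highest such number of any window on the chromosome, and a median width of 625 bp. It was followed by 5 windows with 11 each, 3 on the left, 1 on the right and 1 in the centre. Those of the left arm, at 200001–300000, 2600001–2700000 and 2700001–2800000, had 3, 1 and 2 peaks in both replicates, and their median widths were between 267 and 281 bp. The central one, at 7000001–7100000, had 3 in both and a median width of 303 bp. The one on the right, 13000001–13100000 at the start of the arm, had a median width of 437 bp, and of its 11 peaks 4 were in replicate 2 only, 7 in neither and none in both or in replicate 1 only. Over the whole chromosome 27.9% of combined peaks were in both replicates.

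**Figure D2:**
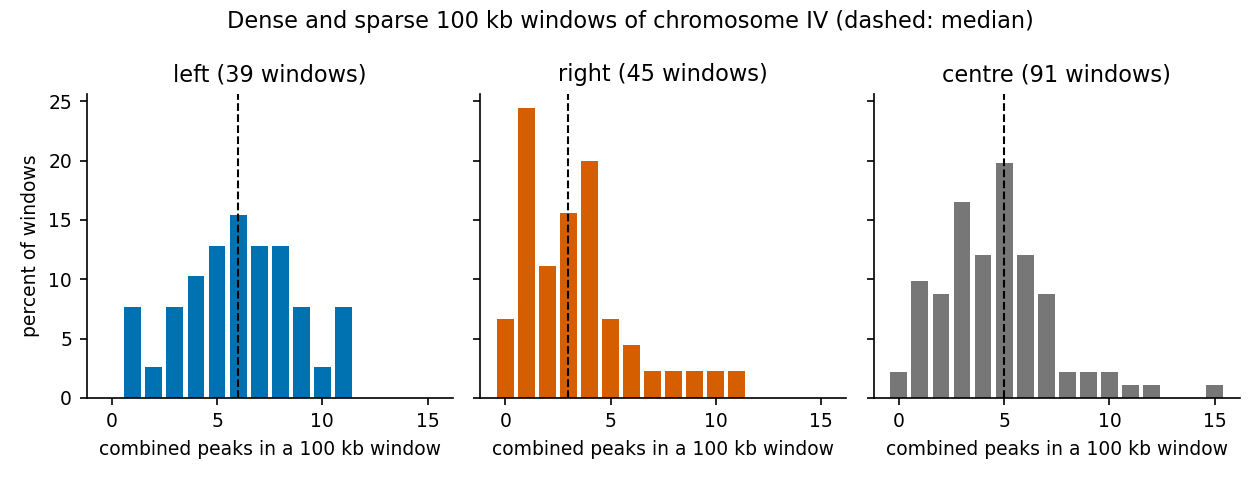
Percent of 100 kb windows (vertical axis) by their number of combined peaks (horizontal axis) in the left, right and central domains of chromosome IV, with the median dashed. The left arm has no empty window and a median of 6, the right arm has 3 empty windows and a median of 3, and the centre has 2 empty windows, a median of 5 and the densest window, with 15 peaks.

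Empty stretches lay mostly in the right arm. Of the 16 stretches of 100 kb or more without a combined peak, 1 was on the left and 9 were on the right, against 6 in the centre, although the centre is the longest domain. The longest was 15049985–15289520, with 239536 bp; a peak of 259 bp at 15289521–15289779, of rank 2731 and found in replicate 2 only, separated it from the third-longest, 15289780–15471330, of 181551 bp. The next peak to the right, at 15471331–15471724, was by contrast well ranked, at 350, and was found in both replicates. The second-longest stretch, 13413241–13639138, contained 1 peak of replicate 1 that the combined list lacks.

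The replicate lists were sparser and their empty stretches longer, and the longest of each lay at almost the same place. The longest in replicate 1 was 4750199–5183660 (433462 bp) and in replicate 2 4781483–5183721 (402239 bp), both around the fourth-longest stretch of the combined list, 4864806–5038823, which had no peak in any list. Replicate 1 also had no peak over 431474 bp at 15039869–15471342, where 3 combined peaks and 2 of replicate 2 overlapped the stretch. The replicates did not always concur. Replicate 1 lacked peaks over 316691 bp at 12923779–13240469, a stretch that 19 combined peaks overlapped, of which 13 were in neither replicate and 4 in replicate 2 only.

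Some peaks stood close together, but most had no neighbour within 1000 bp. The median gap between neighbouring combined peaks was 11386 bp (quartiles 2961.5 and 29757), and 262 of 803 gaps were 5000 bp or shorter. On the other chromosomes the median gap ran from 7262 bp on III to 22750 bp on X, and only X had a longer one than IV. Median gaps differed little between domains, at 11054 bp on the left and 12886 bp on the right, against 11425 bp in the centre; the domains differed more in long gaps, with 90th percentiles of 37441.5 bp on the left and 75327.4 bp on the right, against 53575.8 bp in the centre. Counting peaks separated by at most 1000 bp as a run, 647 peaks stood alone, 130 formed 65 pairs and 27 formed 9 runs of 3. The longest run, 5652784–5657749, spanned 4966 bp in the centre; all 3 of its peaks were in both replicates, and they ranked between 260 and 443. At the other extreme, none of the 3 peaks of the run at 8032105–8034375 was in a replicate, and they ranked between 3699 and 4954.

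The IV sites among the 10 best of all chromosomes lay on the arms. In the combined list 4 of the 10 best peaks of all chromosomes were on IV (95% interval 12.2 to 73.8%). Of these, 3 were on the left and 1 on the right, and none in the centre. In replicate 1 IV held 5 of 10, 4 on the left and 1 on the right. In replicate 2 it held 4 of 10, 3 on the left and 1 on the right. Further down, IV held 17 of the 100 best combined peaks (95% interval 10.2 to 25.8%) and 16.7% of the 1000 best. In the combined list, IV's share of all peaks, 16.2%, lies inside the intervals of the 10 best and the 100 best. For the 10 best of replicate 1 the interval, 18.7 to 81.3%, lay above IV's share of that list, 17.5%. For those of replicate 2 the interval, 12.2 to 73.8%, included IV's share, 16.9%. Of the 17 IV peaks among the 100 best combined peaks, 9 were on the left and 3 on the right, against 5 in the centre. Among the 50 best IV peaks the combined list had 18 on the left and 12 on the right, against 20 in the centre. These numbers were 20 and 14, against 16, in replicate 1 and 16 and 10, against 24, in replicate 2.

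The best site of the chromosome was 14032371–14034889, in the right arm, with a q-value of 2.09e-144 in the combined list, 8.66e-50 in replicate 1 and 7.26e-90 in replicate 2. It held rank 2 in every list, and it was broad, at 2519 bp. The next 4 sites were all in the left arm and all narrow. The peak at 1785069–1785662 was 594 bp wide and had q-values of 6.44e-97, 2.93e-43 and 3.55e-67 in the combined list, replicate 1 and replicate 2, at ranks 4, 5 and 4. At 2403235–2404009 (775 bp) they were 1.04e-95, 1.09e-44 and 1.36e-65, at ranks 5, 4 and 6. These sites were thus placed almost identically by both replicates. At 3455217–3455925 (709 bp) the ranks were 8 in the combined list, 7 in replicate 1 and 8 in replicate 2. At 878548–879223 (676 bp) they were 15, 10 and 27.

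Of the 5 best sites of the centre, 4 were broad. The first, 5752637–5755173, was 2537 bp wide and ranked 21 in the combined list; its best-ranked overlapping peak had rank 202 in replicate 1, where the site was listed as 2 peaks, and rank 36 in replicate 2. The second, 8431189–8433228 (2040 bp), ranked 61, with 106 in replicate 1, again as 2 peaks, and 64 in replicate 2. Then came 6645633–6647462 (1830 bp), at rank 72, with 158 and 88 in the replicates, and 11593297–11594697 (1401 bp), at rank 85, with 60 and 82. The fifth, 7573856–7574305, was the only one of the 5 best of the centre below 800 bp, with 450 bp, and ranked 94, 55 and 79. In the right arm, the sites after the first were 14609704–14613557 (3854 bp, rank 18), 16491037–16493024 (1988 bp, rank 65), 14619497–14622676 (3180 bp, rank 104) and 17278235–17278852 (618 bp, rank 136). All 50 of the best combined sites on IV were in both replicates.

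Among these sites, those of the left arm were the narrowest. The 20 best on the chromosome comprised 10 on the left, 4 on the right and 6 in the centre. Those on the left had a median width of 635 bp (333 to 1800) and those on the right 2849.5 bp (1988 to 3854), against 1615.5 bp in the centre (450 to 2537). Of the 10 left-arm sites, 8 were narrower than 800 bp, and the others were 3232659–3234458 (1800 bp) and 2228302–2229174 (873 bp). Among the 50 best, the medians were 677 bp on the left and 854 bp on the right, against 1113.5 bp in the centre. The 50 best peaks of replicate 1 had medians of 428 bp on the left and 624 bp on the right, against 624 bp in the centre, and those of replicate 2 had 562.5 and 936.5 bp, against 631.5 bp. In all 3 lists the left-arm sites were the narrowest.

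Over all its peaks, the median width on IV was 322 bp (quartiles 228 and 477.25) by the combined list. It was 324 bp by replicate 1 and 378 bp by replicate 2. Domain medians were close, at 305.5 bp on the left and 349 bp on the right, against 321.5 bp in the centre. The domains differed more in broad peaks, here those of 800 bp or more. There were 53 on the chromosome, or 6.59% of its peaks, beside 6.34% of all combined peaks. The left arm had 5 (2.12%, 95% interval 0.691 to 4.87) and the right arm 14 (9.21%, 5.13 to 15.0), against 34 in the centre (8.17%, 5.73 to 11.2). In replicate 1 the shares of broad peaks were 2.20% on the left (2 of 91) and 11.9% on the right (7 of 59), against 4.03% in the centre (6 of 149). In replicate 2 they were 1.90% (2 of 105) and 18.6% (13 of 70), against 9.39% (17 of 181). The left arm had the lowest share and the right arm the highest in each list, but the replicate shares rest on few broad peaks. In the combined list the intervals of the right arm and the centre overlap. The left interval of the combined list does not meet that of either other domain. These intervals cover counting error only and treat peaks as independent, and the 800 bp width was chosen after the data were seen. They are therefore no test of a difference between domains.

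**Figure D3:**
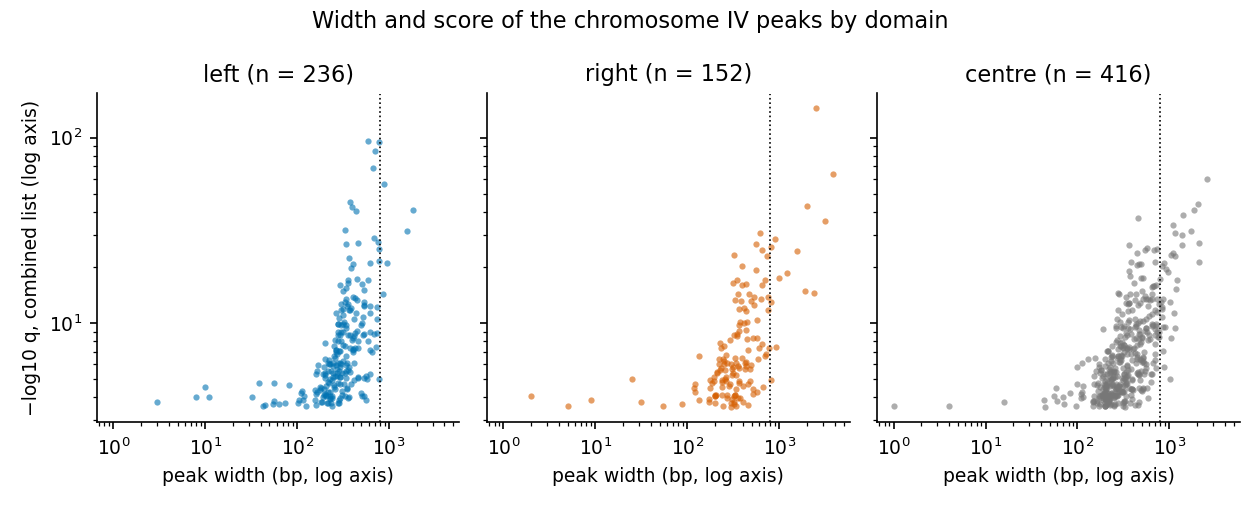
Width in bp (horizontal log axis) against −log10 q in the combined list (vertical log axis) for the 236 left, 152 right and 416 central peaks of chromosome IV, with 800 bp dotted. The highest-scoring left peaks stand left of the dotted line, where 231 of the 236 left peaks lie, whereas the highest-scoring right and central peaks stand to its right.

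Wider peaks had lower q-values in every domain. Across peaks, Spearman's rho between width and −log10 q was 0.67 on the left and 0.64 on the right, against 0.69 in the centre; peaks are not independent replicates, and both values come from the same peak call, so these are descriptions. Within classes of rank the left-arm peaks were nevertheless narrower, mainly in the better-ranked classes. In ranks 51 to 100 of the chromosome the medians were 409 bp on the left and 554 bp on the right, against 651.5 bp in the centre, and in ranks 101 to 200 they were 367 and 444 bp, against 521 bp. In ranks 401 to 600 the left and central medians were close, at 261.5 and 263 bp, and the right median was 284 bp.

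The 2 broadest peaks of the chromosome stood together in the right arm, whereas the third, 5752637–5755173 (2537 bp), was in the centre. Within 14605108–14624813 the combined list had 6 peaks, among them the 2 widest, 14609704–14613557 (3854 bp) and 14619497–14622676 (3180 bp), and 2 more of over 1000 bp directly to their right, 14613775–14614976 (1202 bp) and 14622902–14624813 (1912 bp). These 4 peaks were all in both replicates. Their edges were not drawn alike: a replicate 1 peak at 14612207–14613952 ran across the gap between the first and its neighbour, and a replicate 2 peak of 4101 bp at 14619648–14623748 joined the second to its neighbour. Among the 10 widest peaks, 1 lacked support in both replicates, namely 13029085–13031457 (2373 bp), at rank 638 in the combined list and 407 in replicate 2, and not overlapped by any peak of replicate 1. Of the 53 broad peaks, 43 (81.1%) were in both replicates, beside 27.9% of all IV peaks and 25.4% of all combined peaks. Another 7 were in replicate 2 only, 3 in neither and none in replicate 1 only. Wider peaks also had lower q-values, and whether breadth matters for support apart from rank was not tested.

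Such differences in division were few. Of the 804 combined peaks, 8 overlapped 2 peaks of replicate 1 and 8 overlapped 2 of replicate 2, and none overlapped more. Conversely, parts of 2 combined peaks were covered by each of 2 replicate 1 peaks and 4 replicate 2 peaks. The clearest case was in the left arm, where replicate 2 listed 3231563–3234474 (2912 bp) as a single peak at rank 11. The combined list divided this site into 3231452–3232412 (961 bp, rank 315) and 3232659–3234458 (1800 bp, rank 75), and replicate 1 had a peak over the right piece only. For the 213 combined peaks with exactly 1 partner in each replicate, midpoints were a median of 31.5 bp from those of replicate 1 and 23.5 bp from those of replicate 2. The combined peak was the wider in 91.1% and 80.8% of cases.

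Support by replicates on IV was close to that of the whole list. Overlap of at least 1 bp with a peak in both replicates was found for 224 of 804 combined peaks, or 27.9% (95% interval 24.8 to 31.1), beside 25.4% of all 4971 combined peaks. A further 59 (7.34%) were in replicate 1 only, beside 7.54% of all, and 117 (14.6%) in replicate 2 only, beside 15.6%. The remaining 404, or 50.2% (46.7 to 53.8), were in neither, beside 51.5%. On the other 5 chromosomes together, 24.9% were in both and 51.7% in neither. By domain, 30.5% were in both replicates on the left (24.7 to 36.8) and 30.9% on the right (23.7 to 38.9), against 25.2% in the centre (21.1 to 29.7); the intervals overlap.

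Support followed rank closely. The combined list is from the same study as the replicate lists, and how it arose is not given. The lists may thus share reads, so their overlap cannot be taken as independent support. Of the 50 best IV peaks, all were in both replicates, and of the next 50, 48 were in both and 2 in replicate 2 only. The share in both replicates was 78% in ranks 101 to 200 of the chromosome, 20% in ranks 201 to 400 and 4% in ranks 401 to 600. None of the 204 lowest-ranked peaks was in both, and 92.6% of them were in neither. Peaks in both replicates had a median width of 506.5 bp, and those in neither 251.5 bp. Among peaks in both replicates the median width was 404.5 bp on the left and 553 bp on the right, against 562 bp in the centre, so the narrow shape of left-arm sites was also seen in the part of the list that both replicates contain.

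**Figure D4:**
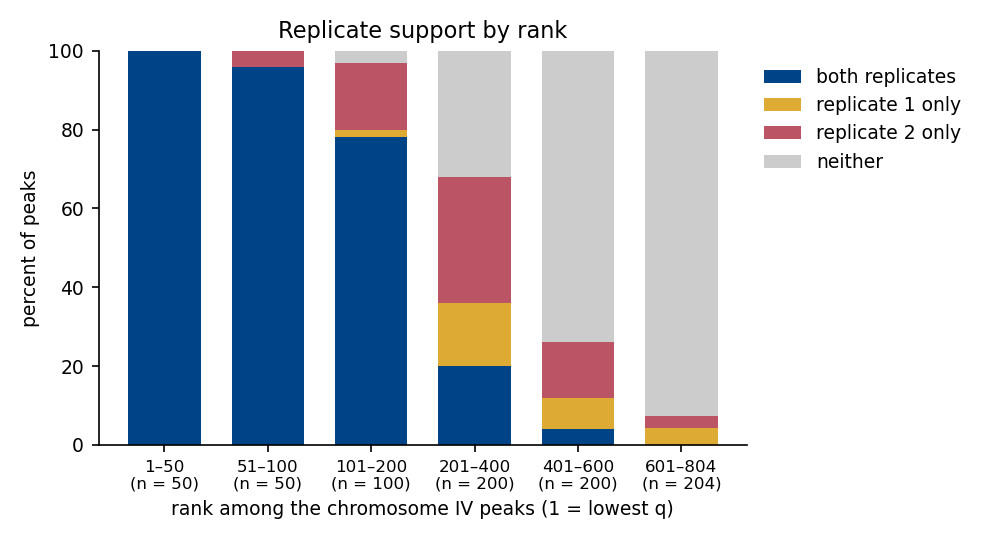
Percent of chromosome IV combined peaks (vertical axis) found in both replicates, in replicate 1 only, in replicate 2 only or in neither, by rank class within the chromosome (horizontal axis, best ranks at left). The share in both falls from 100% in ranks 1 to 50 to 78% in ranks 101 to 200 and 0% in the last class, where 92.6% of peaks are in neither.

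Between the replicates themselves, 230 of the 299 IV peaks of replicate 1 overlapped a peak of replicate 2 (76.9%, 71.7 to 81.6), beside 75.3% of all replicate 1 peaks. Of the 356 IV peaks of replicate 2, 229 overlapped one of replicate 1 (64.3%, 59.1 to 69.3), beside 60.6% of all. In replicate 1 the shared part was 79.1% on the left and 81.4% on the right, against 73.8% in the centre. In replicate 2 it was 68.6% and 70%, against 59.7%. The intervals of the domains overlap in each list. For sites in both replicates −log10 q rose together in the 2 lists, with rho = 0.61 (Spearman) and r = 0.89 (Pearson) over 224 sites. Without the best-ranked site these were 0.60 and 0.87. The values describe agreement across sites within 2 samples and carry no test. A replicate peak that overlapped 2 of these sites entered at both. The level of the scores could differ, as at the best site, with q-values of 8.66e-50 in replicate 1 and 7.26e-90 in replicate 2. By domain rho was 0.71 over 72 left sites and 0.48 over 47 right sites, against 0.57 over 105 central sites.

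**Figure D5:**
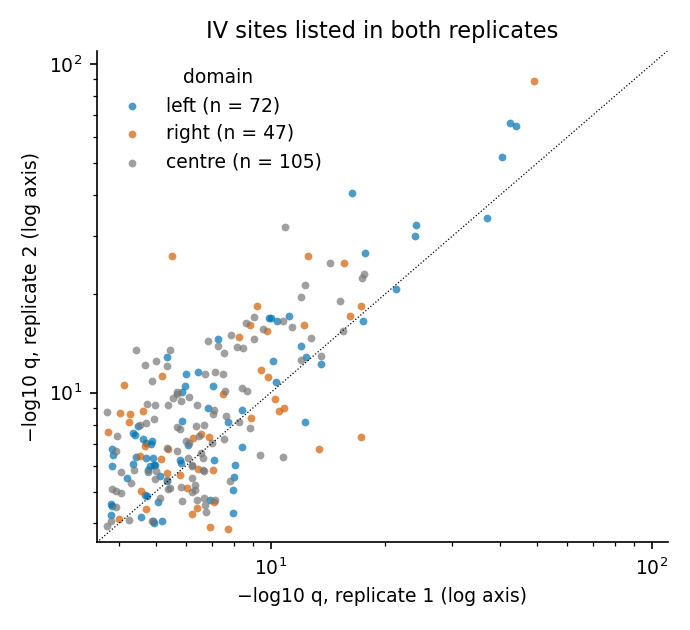
Each point is a chromosome IV combined peak found in both replicates, with −log10 q of its best-ranked overlapping peak in replicate 1 (horizontal log axis) and replicate 2 (vertical log axis), coloured by domain; the dotted line marks equal values. The 72 left, 47 right and 105 central sites form 1 rising cloud, with a Spearman rho of 0.61 over all 224.

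The lists also had sites of their own. The best-ranked combined peak on IV that neither replicate contains was 10918973–10919525 in the centre, at rank 1095 (q-value 2.84e-11), followed by 2802235–2802514 (rank 1204) and 2702479–2702820 (rank 1220) in the left arm. The best found in replicate 2 only were the divided site 3231452–3232412, the broad peak 13029085–13031457 and 4400826–4401361 (536 bp, rank 678). Replicate 1 only peaks began lower, with 7387043–7387516 (474 bp) at rank 1147. Conversely, 10 replicate 1 peaks (3.34%) and 11 replicate 2 peaks (3.09%) on IV overlapped no combined peak. All of them ranked below the median of their own lists, which was rank 855 in replicate 1 and 1055 in replicate 2. The best were 7902993–7903613, at rank 1378 of replicate 1, and 10978059–10978529, at rank 1200 of replicate 2. Both were in the centre and neither was in the other replicate. The combined list had 18 peaks under 50 bp on IV (2.24%), beside 109 over all chromosomes (2.19%), down to a single base at 5662020 (rank 4921). On IV the replicate lists had none, and over all chromosomes they had 5 and 4. Of the 18, 17 were in neither replicate, and the best ranked 3173.

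Beside the other chromosomes, the values of IV were not at an extreme in the measures compared. Its combined density was 46.0 peaks per Mb, against 50.4 over the other 5 chromosomes, and its median width 322 bp, against 319 bp. Its densest 100 kb window held 15 peaks, a number that lay within the range of the others, from 9 on X to 20 on II. Its longest empty stretch of 239536 bp was exceeded only on V, with 360127 bp, and was followed by X, with 234083 bp. Empty windows made up 2.86% of its windows, against 0% on III and 11.2% on X at the extremes. None of these comparisons was tested.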

How the data were processed

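DVE-1 ChIP-seq peaks of late C. elegans embryos were analysed from 3 deposited lists. Coordinates are on WormBase WS180 and 1-based, per the file headers, and each peak carries the q-value that the authors deposited from PeakSeq. These q-values served to rank peaks inside their own list and to set a site's scores side by side. Not given in the sources used here are the aligner, the threshold, the use of the input and how the combined list arose. No genome or annotation of WS180 was used, so no gene or sequence is given and coordinates were not converted. Ranks run over a whole list by q-value, ties by position. A list's peaks were assigned to domains by midpoint, with the span of IV ending at the largest peak end over the 3 lists. Shares have 95% Clopper-Pearson intervals and density ratios exact conditional binomial intervals, both for counting error only. No test over samples is possible with 2 lists, and none was made over peaks. Sites named are the best-ranked overall and by domain, the widest and narrowest, the densest and emptiest stretches, the longest runs, and the best without full support. The chromosome, the domains and these lists were chosen with earlier results of these data known; the 800 and 50 bp widths were chosen after the data were seen. Overlaps were checked against bedtools 2.31.1, and the procedures were tested on simulated data. The alternatives are given in the closing section. The scripts ran in Python 3.11.15 with scipy 1.17.1, numpy 2.4.6, matplotlib 3.10.9 and pandas 2.3.3.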

Additional observations from a re-analysis of the deposited data

How the results depend on the processing

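A value without replicate 1 is taken from replicate 2's own list instead of the combined one, and a value without replicate 2 from that of replicate 1. The density ratio of left to centre stayed above 1, and that of right to centre below 1, under all 8 alternatives of each. With only peaks in both replicates they moved most, to 1.60 from 1.32 and to 0.898 from 0.733. Without a replicate they were 1.35 to 1.42 and 0.776 to 0.794. The interval of right to centre included 1 in these 3 settings. The other alternatives (better-ranked 50%, neighbours counted once, no peaks under 100 bp, boundaries moved by 200 kb either way) gave 1.28 to 1.40 and 0.683 to 0.760. The share of peaks in both replicates was 22.8% with a 50% reciprocal overlap, 24.0% with midpoints within 200 bp and 54.1% in the better-ranked 50% of the list, and the share in neither was 54.1% with the reciprocal overlap, the stricter rule by construction, and 16.5% in the better-ranked 50%. The median width was 324 to 378 bp without a replicate, 506.5 bp with only peaks in both and 434 bp in the better-ranked 50%. The densest 100 kb window held 7 to 9 peaks without a replicate and 7 with only peaks in both, and the longest peak-free stretch 402239 to 433462 bp without a replicate, 523545 bp with only peaks in both and 522604 bp in the better-ranked 50%, each of which holds fewer peaks. For the other moved values the cause was not tested. No paired analysis was possible because only the ChIP samples have a peak list here, so no groups of samples were compared. The files hold no read counts, so what depth limits is unknown.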
